A study of Mus musculus with 4 samples.

Results

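Dense runs of RIF1 peaks are stretches of the mouse genome in which 5 or more peaks follow each other with gaps under 10 kb. They were found in the list of RIF1-bound intervals of primary B cells by sorting the intervals on chromosomes 1 to 19 that were under 50 kb wide, called peaks here, and by joining neighbours whose facing ends lay under 10 kb apart. The rule kept 607 of the 15635 autosomal peaks (3.88%, 95% Wilson interval 3.59 to 4.20) in 109 runs. The whole list held 16332 intervals, of which 289 were at least 50 kb wide and formed no part of any run. The members were chosen by the spacing and the width of the peaks themselves, so the number, size and spacing of the runs are descriptions with no test.

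The intervals come from chromatin immunoprecipitation and sequencing (ChIP-seq) of splenic B cells isolated with anti-CD43 MicroBeads and collected 72 h after activation in culture, where LPS was given at 5 µg/ml and the cytokine IL-4 at 5 ng/ml. The series holds 4 samples. The Rif1FH group (genotype Rif1FH/FH, 2 samples) carries FLAG and HA tags on the endogenous RIF1 protein, and the control group (C57BL/6 Rif1WT/WT, 2 samples) carries untagged RIF1. Chromatin was precipitated with an antibody against the HA tag. The list holds positions that were kept in both Rif1FH samples and no value per sample, so read depth, peak height, the spread between replicates and any comparison with the untagged cells were not measurable from it. It holds no expression either, and the B cell label was therefore not checked against marker genes. All intervals on shares given here cover counting error only, and peaks of 1 run are neighbours and not independent.

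RIF1 is a large chromatin protein that binds protein phosphatase PP1 and counteracts the kinase that fires replication origins, and it is best known for setting when parts of the genome replicate in S phase. In B cells it also protects DNA ends from resection during class switch recombination. Stretches with several regulatory elements in a row are common at cell identity genes, where enhancers, which act on promoters at a distance, lie within introns or between genes.

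To show what the peaks of a run look like, the central 300 bases of 5 peaks are printed below from the plus strand of the mm9 (NCBIM37) reference, with CpG dinucleotides in capitals. The first 2 are the widest start-site peak and the widest intergenic peak among 3 of the runs with the most peaks. They lie in the coding sequence of Cenpb within 1 kb of its start (chr2:131004936-131005235) and between 4831426I19Rik and Glrx5 (chr12:106257968-106258267). The other 3, chosen after their values were seen, are the peak at the start of the B cell receptor gene Cd79b (chr11:106176213-106176512), a peak between Myb and Hbs1l (chr10:20908546-20908845) and a peak at the start of Hoxa7 (chr6:52171215-52171514). The windows marked as starts lie within 1 kb of the 5′ end of the annotated gene but do not hold that end.
Cenpb, coding start: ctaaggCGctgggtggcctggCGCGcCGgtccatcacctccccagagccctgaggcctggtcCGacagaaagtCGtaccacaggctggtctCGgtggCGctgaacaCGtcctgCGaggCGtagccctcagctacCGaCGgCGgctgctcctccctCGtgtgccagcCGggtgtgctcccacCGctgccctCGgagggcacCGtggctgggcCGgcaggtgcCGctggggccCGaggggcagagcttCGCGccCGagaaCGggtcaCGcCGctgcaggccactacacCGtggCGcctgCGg
4831426I19Rik to Glrx5, between genes: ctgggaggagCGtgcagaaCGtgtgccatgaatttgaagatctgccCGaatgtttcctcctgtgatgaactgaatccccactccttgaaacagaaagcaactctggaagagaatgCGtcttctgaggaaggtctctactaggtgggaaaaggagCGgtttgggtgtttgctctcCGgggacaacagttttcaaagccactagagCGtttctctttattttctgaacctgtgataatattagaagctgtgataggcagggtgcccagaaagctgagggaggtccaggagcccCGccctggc
Cd79b, start: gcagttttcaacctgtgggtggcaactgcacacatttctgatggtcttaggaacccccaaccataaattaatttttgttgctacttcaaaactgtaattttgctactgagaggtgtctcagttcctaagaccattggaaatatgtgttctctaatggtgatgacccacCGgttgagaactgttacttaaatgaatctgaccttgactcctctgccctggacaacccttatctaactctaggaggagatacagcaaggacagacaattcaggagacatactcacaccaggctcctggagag
Myb to Hbs1l, between genes: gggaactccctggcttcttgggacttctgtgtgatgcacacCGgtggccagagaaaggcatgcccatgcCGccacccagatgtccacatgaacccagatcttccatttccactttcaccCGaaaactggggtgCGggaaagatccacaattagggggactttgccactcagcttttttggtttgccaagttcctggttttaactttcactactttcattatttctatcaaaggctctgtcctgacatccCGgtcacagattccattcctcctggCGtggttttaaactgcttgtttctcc
Hoxa7, start: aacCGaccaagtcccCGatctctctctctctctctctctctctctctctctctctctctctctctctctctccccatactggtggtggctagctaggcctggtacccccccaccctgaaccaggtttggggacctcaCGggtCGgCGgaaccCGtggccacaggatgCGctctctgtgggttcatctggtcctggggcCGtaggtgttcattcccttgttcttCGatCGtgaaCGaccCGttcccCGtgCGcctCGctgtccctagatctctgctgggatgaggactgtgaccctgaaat
The Cenpb window held 31 CpG dinucleotides at 72.3% GC, and the Hoxa7 window held 15 at 59.3% GC. The windows away from start sites were poorer in CpG, with 6 beside Myb and 8 between 4831426I19Rik and Glrx5. The Cd79b window held 1 CpG at 44.0% GC although it lies just in front of the gene, within 1 kb of its 5′ end. In the window between 4831426I19Rik and Glrx5, the letters of the interferon-response motif bound by IRF factors (ISRE) lie at bases 87 to 96 and those of a PU.1 motif (GAGGAAG) at bases 124 to 130, counted from 1 at the left end on either strand. A match of letters is a description and not a bound site.

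Runs were short and rare. Of the 109 runs, 71 held 5 peaks, 23 held 6, 9 held 7, 4 held 8, 1 held 9 and 1 held 10. Below the limit lay 167 groups of 4 peaks (median length 17.9 kb, at most 32.3 kb) and 471 groups of 3, beside 1898 pairs and 9151 lone peaks. The longest gap joined within a run was 9969 bp, and the shortest gap that ended a run was 10155 bp. Gaps within runs had a median of 2.86 kb (quartiles 1.11 and 5.88 kb, n = 498), and 115 of them (23.1%, 19.6 to 27.0) were under 1 kb. The gaps that bounded the runs had a median of 43.6 kb (n = 216), and 45 of these were under 20 kb.

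Run length ranged from 10.5 to 51.7 kb with a median of 26.3 kb (quartiles 21.2 and 31.3 kb). All runs together spanned 2915 kb, which is 0.118% of the autosomal sequence, and peaks covered 1093 kb of this span. The share of a run covered by its peaks ranged from 17.5% to 82.0%, with a median of 35.3%. The least covered run lay inside Hivep3, a gene for a large zinc finger protein, and the most covered run lay over Otx1, a homeobox gene known from brain development.

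**Figure D1:**
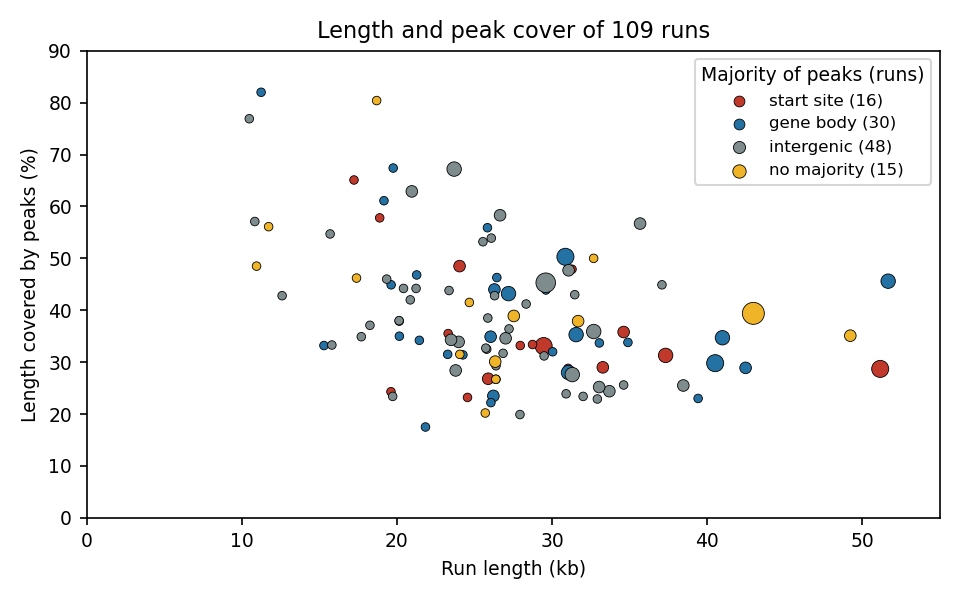
Each point is 1 of the 109 runs, placed by its length (x axis, kb) and by the percentage of that length covered by peaks (y axis), coloured by the class of most of its peaks, with larger points for more peaks. The longest run (51.7 kb) was 45.6% covered, and the run of highest cover (82.0%) was 11.2 kb long.

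Peaks in runs lay at start sites less often than other autosomal peaks and between genes more often. A start-site peak overlaps the 1 kb on either side of the 5′ end of any annotated transcript, a gene-body peak overlaps a gene only elsewhere, and the rest are intergenic. Start-site peaks made up 24.5% of the peaks in runs (149 of 607, 21.3 to 28.1) and 49.1% of the 15028 other autosomal peaks (48.3 to 49.9). Gene-body peaks made up 31.1% in runs (189, 27.6 to 34.9) and 22.8% elsewhere (22.1 to 23.5). Intergenic peaks made up 44.3% in runs (269, 40.4 to 48.3) and 28.1% elsewhere (27.4 to 28.8). None of these 3 pairs of intervals overlapped. Among the peaks away from start sites, gene-body peaks were 41.3% in runs (36.8 to 45.8) and 44.8% elsewhere (43.7 to 45.9), and these intervals overlapped. The start-site share was lower in runs on each of the 19 autosomes, whereas the gene-body share was higher in runs on 12 and the intergenic share on 14. Class does not enter the rule, but spacing does, and start sites are spaced by the layout of genes. The shares, and their shift with the number of peaks joined, can therefore follow partly from the rule, whose part was not tested.

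The classes shifted with the number of peaks joined. Start-site peaks were 55.3% of lone peaks, 43.9% of peaks in pairs, 33.1% in groups of 3, 29.2% in groups of 4, 23.1% in runs of 5 and 26.6% in runs of 6 or more. Intergenic peaks were 24.8% of lone peaks and 46.5% of peaks in runs of 5. The intervals of groups of 4, runs of 5 and longer runs overlapped one another in each class. A step at the limit of 5 peaks was therefore not resolved, and the overlap does not show that the shares are equal. Of the gene-body peaks in runs, 169 of 189 (89.4%, 84.2 to 93.0) had their midpoint in an intron, beside 90.6% elsewhere (89.6 to 91.6).

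**Figure D2:**
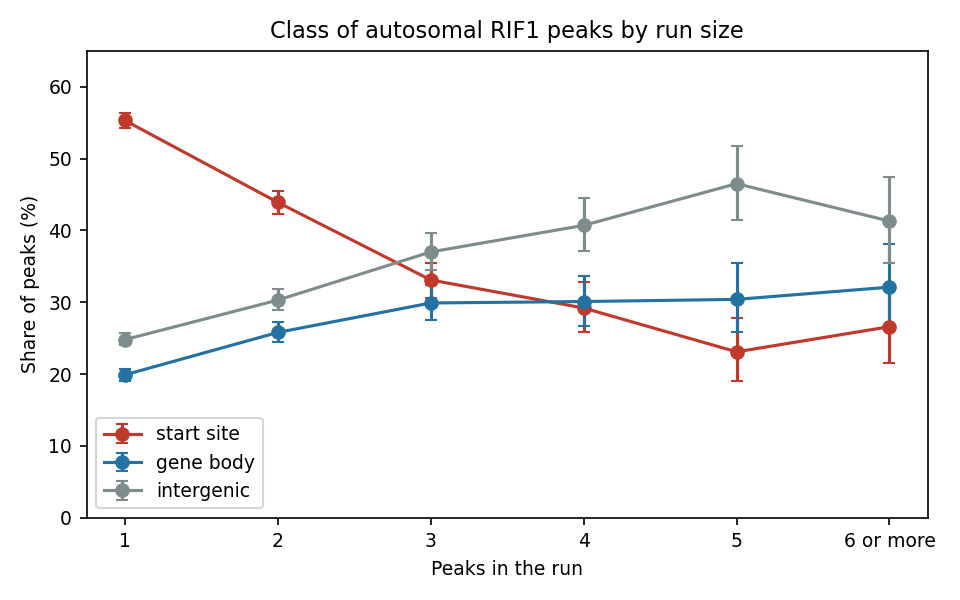
The y axis gives the percentage of autosomal peaks at start sites, in gene bodies and between genes, and the x axis the number of peaks joined, with bars for 95% Wilson intervals over peaks. Start-site peaks go from 55.3% of lone peaks to 26.6% of peaks in runs of 6 or more, and the intervals at 4, 5 and 6 or more overlap.

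The runs differed among themselves in composition. In 37 of the 109 runs no peak lay at a start site, 38 runs held 1 such peak and 34 held more. Intergenic peaks were the majority in 48 runs, gene-body peaks in 30 and start-site peaks in 16, and 15 runs had no majority. All peaks were intergenic in 22 runs and in gene bodies in 12, and 26 runs held all 3 classes. All peaks lay at start sites in 2 runs, which were chosen for naming after their values were seen. One overlapped Hoxa3, Hoxa6, Hoxa7 and Hoxa9, homeobox genes of axial patterning, in 18.9 kb with 57.8% cover, and took in only Hoxa7 whole. The other overlapped Traf4, Nek8, Tlcd1, Rpl23a, Rab34 and Proca1 in 31.0 kb with 28.8% cover, with only the 5′ parts of Traf4 and Proca1 inside it. The first and last peaks of the runs were start-site peaks in 28.0% of cases (61 of 218, 22.4 to 34.3) and the inner peaks in 22.6% (88 of 389, 18.7 to 27.0), and the intervals overlapped.

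The run with the most peaks held 10 in 43.0 kb (chr12:106228747-106271729). It began in 4831426I19Rik and passed the 5′ end of that gene. It ended in a peak over the separate starts of Glrx5, an enzyme of iron-sulphur cluster assembly, and the small RNA gene Scarna13. From left to right its peaks were 1131, 1078, 762, 1336, 1072, 2945, 2010, 2265, 2033 and 2291 bp wide. The 3 intergenic peaks filled part of the space between the genes, and the last peak, at Glrx5, had the highest CpG observed over expected ratio of the run (0.726, beside 0.196 to 0.435 for the other 9).

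Several of the runs with the most peaks followed a string of neighbouring genes. On chromosome 2, 8 peaks in 51.2 kb (chr2:130985174-131036334) passed 1700037H04Rik, Spef1, Cenpb, Cdc25b and 2310035K24Rik. Of these genes, Cenpb encodes a centromere protein that binds a DNA motif in satellite repeats, and Cdc25b encodes a phosphatase that drives entry into mitosis. Start-site peaks were 5 of the 8, 2 peaks lay between Cdc25b and 2310035K24Rik, and the widest, at Cenpb, was 3977 bp. On chromosome 8, 7 peaks in 37.3 kb (chr8:107777692-107815017) overlapped B3gnt9-ps, Tradd, Fbxl8, Hsf4, Nol3, 4931428F04Rik and Exoc3l, and 6 of the peaks were start-site peaks. Tradd encodes an adaptor of tumour necrosis factor receptors and Hsf4 a heat shock transcription factor. Another chromosome 8 run (chr8:96870092-96911081, 41.0 kb) held 4 peaks in Slc12a3, a kidney salt transporter, 1 intergenic peak, a 5666 bp peak at a noncoding gene and a last peak at Herpud1, a gene of the endoplasmic reticulum stress response.

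Other runs lay mostly or wholly over the body of 1 gene. The run in Flt3, the receptor tyrosine kinase of early blood progenitors, held 8 peaks in 40.5 kb (chr5:148143765-148184285), all in the gene body and 27.8 kb or more from its 5′ end. Their widths were 1000, 772, 3615, 935, 900, 1779, 1431 and 1655 bp, and their CpG ratios ranged from 0.153 to 0.348. The run at Ccnd3, which encodes cyclin D3, a regulator of the G1 phase needed for B cell expansion, held 8 peaks in 30.9 kb (chr17:47638721-47669586). The first lay at the start of the neighbouring gene Taf8, a subunit of the general transcription factor TFIID, the next at the start of Ccnd3, and the remaining 6 in Ccnd3 introns. The Ccnd3 start-site peak was 1629 bp wide, and the intronic peaks were 1384 to 3673 bp wide. The run in Tex14, a gene known from germ cells, held 8 peaks in 29.5 kb (chr11:87255265-87284726). Of these, 7 counted as start-site peaks through small RNA and noncoding genes annotated inside Tex14, mostly copies named U3, and none lay at a start of Tex14 itself. In this run 9.47% of all 36-base words occurred more than once within the run, against a median of 0.466% over the 109 runs.

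A further 2 of the top 10 runs overlapped no coding gene. The longest run of all (chr16:49768521-49820194, 51.7 kb, 7 peaks) lay between Ift57, 3.28 kb to its left, and Cd47, 35.5 kb to its right. Cd47 encodes the surface protein that restrains phagocytosis. Its peaks included 3 of 6781, 4410 and 6066 bp, and 4 of the 7 lay in introns of the noncoding gene Gm15518. A run on chromosome 11 (chr11:86193298-86225988, 32.7 kb, 7 peaks) lay between Med13, a subunit of the Mediator kinase module 22.2 kb to its left, and Rnft1, 72.2 kb to its right. Its 1 start-site peak lay at an annotated 5S rRNA copy, and the other 6 peaks were intergenic.

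**Figure D3:**
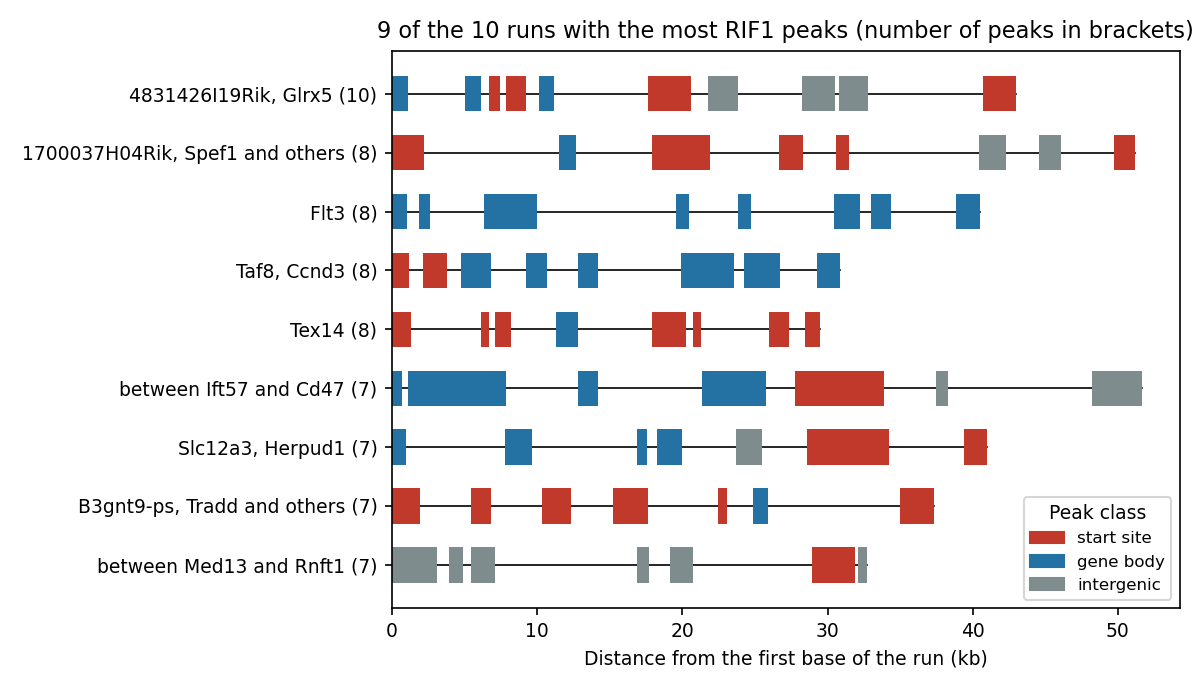
Of the 10 runs with the most peaks, 9 are drawn to scale from their first base (x axis, kb), with 1 box per peak coloured by class and the number of peaks in brackets. The run in Flt3 consists of 8 gene-body peaks, the run from Taf8 to Ccnd3 of 2 start-site and 6 gene-body peaks, and the run between Med13 and Rnft1 of 6 intergenic peaks and 1 start-site peak.

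Runs overlapped 139 of the 21418 autosomal coding genes, or 0.649%, and 46 noncoding genes. Each run covered few genes. No coding gene was overlapped by 28 runs, 1 by 57, 2 by 10 and 3 or more by 14, and 22 runs overlapped no gene of any type. Counting a gene once for each run, 56 of 141 overlaps took in the whole gene, 49 its 5′ end and 16 its 3′ end, and in 20 the run lay inside the gene. Of the 105 coding genes whose 5′ end fell in the span of a run, 100 had a peak of the run at a start site. In the list as a whole, 7333 of the 21418 autosomal coding genes had a peak at a start site. The span of a run is bounded and partly filled by peaks, so a 5′ end inside it is likely to lie near one by construction. The 2 counts are therefore not alike, and no test was made.

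The coding genes with the most run peaks over them were Flt3 and Tex14 (8 each), Arfip1 and Ccnd3 (7 each), and 4831426I19Rik, Fam134b, Mtss1 and Pde4b (6 each). Of the 6 peaks over 4831426I19Rik 3 lay at its start sites and of the 7 over Ccnd3 1 did, whereas the runs in Flt3, Tex14, Fam134b, Mtss1 and Pde4b lay 27.8, 36.7, 47.3, 21.0 and 418 kb from the 5′ end of the gene. Fam134b encodes a receptor for autophagy of the endoplasmic reticulum, Mtss1 a membrane-bending scaffold protein and Pde4b a phosphodiesterase that breaks down cyclic AMP. The Arfip1 gene is annotated over 1391 kb and its run also overlapped Tmem154, which lies inside that span, so the assignment to Arfip1 is uncertain. A further 17 overlaps held 5 peaks each, among them Abcg1, a cholesterol exporter, and Adap1.

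Of the 109 runs, 8 lay within 100 kb of another, as 4 pairs, and the genes at these pairs were chosen for naming after their values were seen. Hivep3 held 2 runs of 5 gene-body peaks, 31.7 kb apart and 225 and 278 kb from its 5′ end, with cover of 46.8% and 17.5%. Lrrc33, a gene of the leucine-rich repeat family, lay across the 12.1 kb between 2 runs of 6 and 5 peaks, with 7173 and 7129 bp among the peak widths. Irf2, an interferon regulatory factor, was overlapped at 1 peak by a run of 5, with a second run of 5 intergenic peaks 49.4 kb further on. A run of 6 peaks lay on each side of Myb, a transcription factor of blood progenitors, at 17.4 and 21.7 kb, and the runs lay 75.1 kb from each other.

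Few genes of the B cell and replication lists lay in runs. Of 36 matched genes of B cell receptor signalling, 1 was overlapped, Cd79b, which encodes the Ig-beta chain of the receptor. Of 36 matched surface, cytokine and costimulatory receptor genes, 1 was overlapped, Tnfrsf13b, which encodes TACI, a receptor for BAFF and APRIL. No run overlapped any of 37 B cell transcription factor genes, 16 genes of NF-kappaB and its inhibitors, 27 genes of class switching and break repair, or 36 genes of replication licensing and firing. The comparison lists gave 0 of 30 T cell, myeloid and erythroid genes and 0 of 29 neural and liver genes. At 0.649% of all autosomal coding genes, a list of this size would hold few members or none, and these counts are read no further.

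Wide intervals, which are listed as 1 region each and hold no separate peaks, overlapped 5049 of the 21418 autosomal coding genes (23.6%). Among the list genes they overlapped 23 of 37 for B cell transcription factors, 18 of 36 for surface, cytokine and costimulatory receptors, 12 of 36 for B cell receptor signalling, 12 of 36 for replication, 7 of 16 for NF-kappaB and its inhibitors and 3 of 27 for class switching and repair. In the comparison lists they overlapped 8 of 30 T cell, myeloid and erythroid genes and 4 of 29 neural and liver genes. Within 100 kb of a run, but not overlapped, lay Myb (17.4 kb), Nfkbia (36.1 kb), Cd72 (21.6 kb), Cd44 (53.5 kb), Rnf168 (98.5 kb) and Mpo (29.0 kb), 1 gene from each of 6 lists. Nfkbia encodes the NF-kappaB inhibitor, Cd72 an inhibitory coreceptor of B cells and Mpo the myeloperoxidase of neutrophils. Over all autosomal coding genes, 442 (2.06%) lay within 100 kb of a run or in one.

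The run at Cd79b held 7 peaks in 31.6 kb (chr11:106166436-106197991). A peak of 1021 bp lay at the Cd79b start, 2 peaks of 1635 and 543 bp lay to its left between genes, and 4 peaks of 2305, 1358, 929 and 3345 bp lay in the neighbouring muscle sodium channel gene Scn4a. The Cd79b peak had a CpG ratio of 0.0780, the lowest of the 149 start-site peaks in runs. The run at Tnfrsf13b held 7 peaks in 23.7 kb (chr11:60917466-60941157), with 6 intergenic peaks of 547 to 5937 bp in front of the gene and a last peak of 1774 bp at its start. Peaks covered 67.2% of it, and its gaps were 670 to 2230 bp.

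The 28 runs that overlapped no coding gene lay 3.64 to 428 kb from the nearest coding 5′ end, with a median of 36.6 kb. The farthest held 7 intergenic peaks in 31.3 kb on chromosome 13 (chr13:83183783-83215090), and its nearest coding 5′ end belonged to Mef2c, a transcription factor gene used in B cell responses, at 428 kb. Distances to named neighbours are to the nearest edge of the gene. The run to the left of Nfkbia held 6 intergenic peaks of 520 to 1875 bp in 23.8 kb (chr12:56530550-56554340), with Psma6, a proteasome subunit gene, 11.1 kb away on its other side. Runs of 5 intergenic peaks lay 14.5 kb from Map3k8, a kinase gene of NF-kappaB and MAP kinase signalling, 10.1 kb from Pmaip1, which encodes the cell death protein NOXA, and 27.4 kb from Bach1, a haem-regulated repressor. The genes of this paragraph were chosen after their values were seen, and a neighbour by distance is not shown to be a target. The shortest run held 5 intergenic peaks in 10.5 kb (chr1:64345326-64355810) and lay 176 kb from Klf7 and 224 kb from Creb1, with 76.9% of its span covered.

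The run of highest cover, at Otx1 (chr11:21892697-21903943), took in the whole gene with 5 peaks of 1343, 1066, 982, 1325 and 4504 bp and gaps of at most 725 bp. Among the other short runs, 2 of 5 peaks were chosen after their values were seen. They lay over Foxa1, a pioneer factor of endoderm (10953 bp, 48.5% cover), and over Tbr1 except its 5′ end (11731 bp, 56.1% cover). Tbr1 is a transcription factor of cortical neurons.

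Chromosome 11 and chromosome 2 held 14 runs each, or 11.5 and 7.70 per 100 Mb, and chromosome 14 held 2. The share of a chromosome's peaks that lay in runs ranged from 1.77% on chromosome 14 to 7.81% on chromosome 11. The median distance from a run to the nearest wide interval was 3174 kb, and 1 of the 109 runs lay within 100 kb of one. Per peak, the median distance was 3201 kb for peaks in runs and 2522 kb for peaks outside runs. Within 100 kb of a wide interval lay 0.824% of peaks in runs (5, 0.352 to 1.91) and 2.64% of other peaks (396, 2.39 to 2.90). The 5 peaks in runs all belonged to that 1 run.

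In 2 runs most of the sequence was repeated within the run, whereas all others stayed below 20% of 36-base words. The first of them was the run with the most coding 5′ ends. It held 6 peaks in 25.9 kb (chr9:3000213-3026098), began 212 bases after the unsequenced start of the chromosome assembly, and overlapped 8 predicted coding genes named Gm10722, Gm11168, Gm10721, Gm10720, Gm10719, Gm11167, Gm10718 and Gm10717. In it 92.4% of words were repeated, its peaks had a median GC content of 35.2% and a median CpG ratio of 0.803, and near-identical copies make the placing of reads uncertain. The second held 5 intergenic peaks in 10.8 kb (chr6:47687930-47698770) with 88.3% of words repeated, began 891 bases after an assembly gap, and was the run within 100 kb of a wide interval, 1.16 kb away. Without both, 107 runs of 596 peaks and 131 coding genes were left, with 24.3% start-site, 31.4% gene-body and 44.3% intergenic peaks. The part of repeated sequence in the 2 runs was not tested.

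Peaks in runs were somewhat wider than other peaks of the same class. Intergenic peaks had a median width of 1489 bp in runs and 1199 bp elsewhere, gene-body peaks 1335 and 1147 bp, and start-site peaks 1642 and 1561 bp. The quartile ranges overlapped widely in each class. Over all classes, median width was 1368 bp for lone peaks, 1339 bp in pairs, 1399 bp in groups of 3 and 1446 bp in groups of 4. In runs of 5 it was 1475 bp and in runs of 6 or more 1443 bp, so groups just below the limit held peaks of similar width. Width enters the rule, because a wider peak leaves a shorter gap, and these medians are descriptions. With gaps measured between midpoints, the median width of intergenic peaks in runs was 1429 bp, and the matching value for other peaks was not computed.

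Run peaks as a whole had fewer CpG dinucleotides. The ratio of CpG observed over expected had a median of 0.256 in runs and 0.399 elsewhere. By number of peaks joined, it was 0.478 for lone peaks, 0.344 in pairs, 0.275 in groups of 3 and 0.252 in groups of 4. In runs of 5 it was 0.252 and in runs of 6 or more 0.260, so groups just below the limit had similar ratios. Within classes the medians lay closer, as in gene bodies (0.243 and 0.249) and between genes (0.227 and 0.245), where the quartile ranges overlapped. At start sites the median was 0.531 in runs (quartiles 0.313 and 0.673) and 0.629 elsewhere (0.495 and 0.735), and at coding start sites it was 0.565 and 0.636. GC content at start sites was 53.8% in runs and 54.4% elsewhere.

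**Figure D4:**
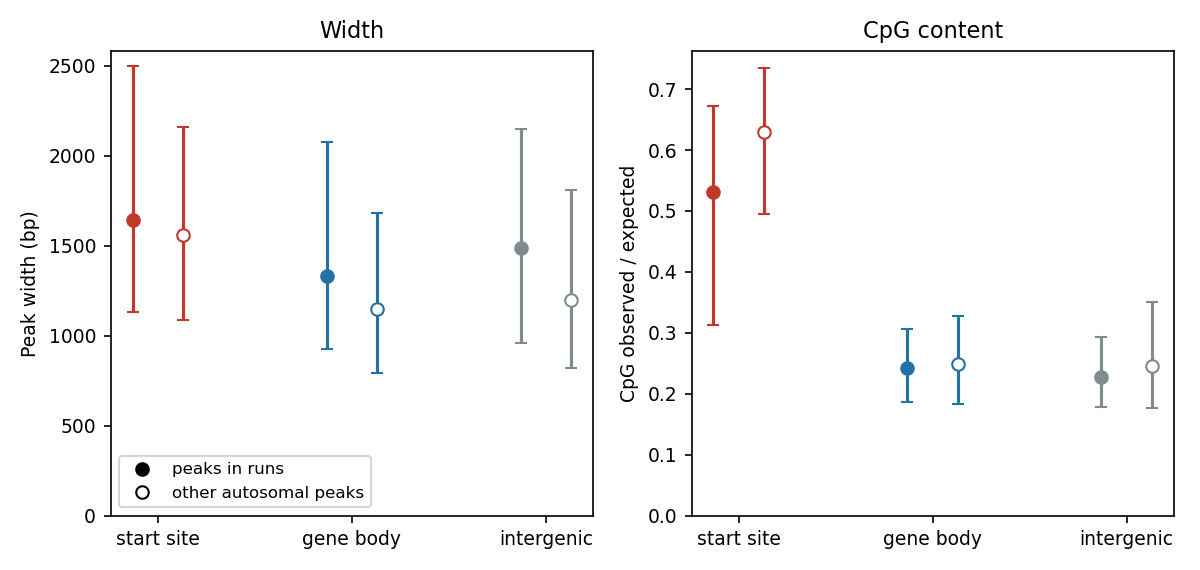
The left panel gives peak width (y axis, bp) and the right panel the ratio of CpG observed over expected (y axis), by class, with points for medians and bars from the lower to the upper quartile. Filled points are peaks in runs and open points other autosomal peaks. Start-site medians of the CpG ratio are 0.531 and 0.629, and the quartile ranges overlap in all 3 classes.

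Of 13 sequence motifs searched on both strands in the central 300 bases of each peak, most were found in similar shares of run and other peaks. At start sites, the ETS motif CCGGAAG was found in 3.36% of run peaks (5 of 149, 1.44 to 7.61) and 11.3% of others (10.6 to 12.1). The GC box GGGCGG, the motif of SP and KLF factors, was found in 27.5% of run peaks (41, 21.0 to 35.2) and 43.3% of others (42.2 to 44.5). Both motifs contain CpG, as do the NRF1, E-box and CRE motifs, whose start-site intervals overlapped. CpG content was also lower at start sites in runs, and its part in these shares was not tested. At coding start sites the shares were 3.20% and 11.6% for ETS and 31.2% and 44.3% for the GC box. For the other 11 motifs the start-site intervals overlapped. These were the CCAAT box CCAAT (27.5% and 28.4%), the PU.1 motif GAGGAAG (11.4% and 12.9%), the NRF1 core GCATGCG (1.34% and 3.82%), the E-box CACGTG (10.1% and 10.0%), the AP-1 motif TGACTCA (3.36% and 3.56%), the octamer core TTTGCAT (4.03% and 3.21%), the RUNX motif TGTGGTT (2.68% and 4.44%), the CRE motif TGACGTC (3.36% and 3.07%), the NF-kappaB motif (4.70% and 4.97%), the interferon-response motif (2.01% and 3.40%) and a G-quadruplex pattern (18.8% and 17.4%).

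Away from start sites the intervals of run and other peaks overlapped for the motifs of several factors of activated B cells. Between genes, the AP-1 motif was found in 11.2% of run peaks (7.92 to 15.5) and 10.6% of others (9.68 to 11.5), the PU.1 motif in 18.2% (14.1 to 23.3) and 16.5% (15.4 to 17.6), and the NF-kappaB motif in 5.20% (3.13 to 8.55) and 6.04% (5.36 to 6.80). AP-1 and BATF factors, PU.1 and NF-kappaB dimers are known regulators of B cell enhancers. In gene bodies the NF-kappaB motif was found in 7.94% of run peaks (4.87 to 12.7) and 5.87% of others (5.13 to 6.71). Overlap of these intervals does not show that the shares are equal.

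**Figure D5:**
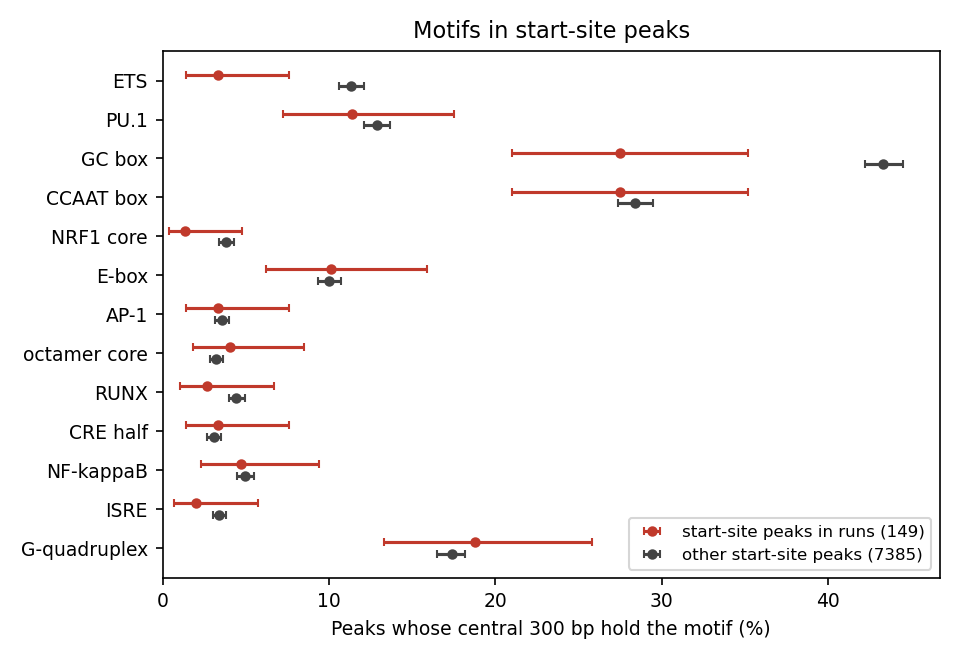
The x axis gives the percentage of start-site peaks whose central 300 bp hold each of 13 motifs, for 149 start-site peaks in runs and 7385 others, with bars for 95% Wilson intervals. The intervals do not overlap for the ETS motif (3.36% and 11.3%) and the GC box (27.5% and 43.3%).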

How the data were processed

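What was measured is the binding of HA-tagged RIF1 by ChIP-seq. In the authors' methods, reads were trimmed (Trim Galore 0.6.4), aligned to mm9 with Bowtie 1.0.0 keeping unique alignments, and peaks were called per replicate with MACS2 2.2.6, narrow and broad. The authors merged them with bedtools 2.27.1, kept those found in both Rif1FH replicates and called wide domains with EDD. The paper counted as peaks only those lying outside these domains, so no run could form inside a wide domain. The labels also name deepTools 3.3.0. Unique alignment removes reads from identical repeats, and 1 long call split into pieces, or neighbouring calls merged, would change a run's number of peaks.

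The deposited list holds positions only, with no score, and was not split by sample. The antibody label names the CD43 beads, and the protocol, which gives anti-HA, was followed. No column of per-sample values was left out.

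Runs were built with Python 3.11.15 (numpy 2.4.6, scipy 1.17.1, matplotlib 3.10.9). Peaks were classed with GENCODE vM1 genes of NCBIM37 (37310 genes, 22380 coding, 95495 transcripts). Positions are counted from 1. Shares carry 95% Wilson intervals. No test was made. The run-building and classing steps were tested on simulated intervals. The members, gene lists and motifs were chosen with earlier results of these data known.

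Named were the 10 runs with the most peaks (6 held 8 or more, and the other 4 were the longest of 9 tied at 7), the longest, the shortest, the most covered, the run with the most coding 5′ ends and the run with the most peaks over no coding gene, with their coding genes, the 10 coding genes with the most run peaks (the last 2 taken in alphabetical order from 17 overlaps tied at 5), and list genes in runs. The first 2 sequences shown came from the widest peak of a class in the 3 runs with the most peaks, chromosome 18 aside. The other 3 were chosen after their values were seen. Of the items these rules pick, 1 run and 1 sequence are not reported here. Other names are marked as chosen later. Alternatives changed the joining distance, the smallest run, the gap measure, peak merging, peak width, the start-site window and the classing.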

Additional observations from a re-analysis of the deposited data

How the results depend on the processing

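The number and size of runs followed the joining rule, while the start-site share stayed below that of the remaining peaks under every setting tried (20.4% to 31.3% in runs, 45.6% to 58.9% elsewhere). Joining gaps under 5 kb gave 28 runs of 148 peaks, median length 18.0 kb, over 34 coding genes. Joining gaps under 20 kb gave 310 runs of 1857 peaks, 42.6 kb, 531 genes and 29.1% start-site peaks. Runs of 4 or more numbered 276 with 1275 peaks, 20.8 kb and 314 genes, and runs of 6 or more 38 with 252 peaks, 31.1 kb and 66 genes. Gaps between midpoints gave 81 runs of 444 peaks, 23.8 kb and 92 genes. With peaks under 1 kb apart merged there were 53 runs of 288 peaks, 29.5 kb, 90 genes, 30.2% start-site and 37.2% intergenic peaks. With only peaks at or above the median width there were 14 runs of 74 peaks, 18 genes, 20.3% gene-body and 56.8% intergenic peaks. A start-site window of 2.5 kb gave 31.3% start-site and 26.0% gene-body peaks, coding genes only gave 20.6% start-site and 49.6% intergenic peaks, and classing by midpoint gave 20.4% start-site peaks. Each of these settings changes the peaks or the classes by its construction, and each also selects runs by spacing. Of 78 values recomputed, 43 stayed within the interval of the reported value, or within 1.5 times it for counts, and 35 moved. All 35 came from the settings planned beforehand. Every value from the alternatives chosen after seeing the data stayed.

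Leaving out the 2 repeated runs, adding chromosome X and the midpoint width were alternatives chosen after seeing the data. No paired analysis was possible because values per sample are lacking in the list, and leaving out a replicate could not be run for the same reason. Depth and peak height are unknown, so a run of weak peaks cannot be told apart from a run of strong ones, and peaks missed in 1 replicate are absent.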

Other observations

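Outside the autosomes, the same rule found 1 run among the 408 peaks of chromosome X. It held 11 peaks in 54.7 kb (chrX:47919057-47973766 on mm9), more than any autosomal run, and was longer than the longest of them. All 11 peaks lay in the body of 1 noncoding gene, 6720401G13Rik, known as Firre, whose RNA is a long noncoding RNA with an array of local repeats. Peaks covered 20.5% of the run, and the gene holds no coding sequence, so the count of coding genes in runs stayed at 139 with this run included. The share of words repeated within the run was not computed for it, so how certain the placing of its reads is remains unknown.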
